A study of Rattus norvegicus with 20 samples.

Results

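The natriuretic peptides and their receptors are 6 genes: Nppa, Nppb and Nppc, which encode the peptides ANP, BNP and CNP, and Npr1, Npr2 and Npr3, which encode their receptors. They were chosen as the probes, other than control spots, whose gene name in the array files was one of these symbols, which gave 6 of 35561 gene names and 8 probes of 41012, 3 of them for Nppb. RNA from primary heart cell cultures of neonatal rats, grown for 1 day, was labelled with the dye Cy3 and measured on single-colour arrays. The 20 arrays comprise 2 from untreated cultures and 3 for every one of 6 groups given celecoxib, an inhibitor of cyclo-oxygenase 2, at reference concentrations of 1, 1/5 or 1/25 for 6 h or 24 h. The labels give no strain, no vehicle, no absolute concentration and no time for the untreated arrays, so the untreated cultures have no known match in time to 6 h or 24 h. They call the cells cardiomyocytes. Nothing in them tells whether replicates came from different cultures, and the p-values therefore reflect variation among these arrays alone, part or all of which may be technical.

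ANP and BNP are hormones of the heart muscle cell, released on stretch, and both act through the receptor encoded by Npr1, a guanylate cyclase that makes cyclic GMP inside the cell. CNP acts mainly through the guanylate cyclase encoded by Npr2, is made by endothelium and other cells rather than mainly by heart muscle, and acts over short distances. The receptor encoded by Npr3 lacks the cyclase and clears all 3 peptides from the medium.

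The values are the scanner software's processed signal of each spot, in linear intensity units. Below, relative signal is that value divided by the 75th percentile of all probes on the same array, which ran from 7708 to 17500 units. A probe is called well above background, or saturated, as the scanner software marked it on at least 0.5 of its spots. Between 63.5% and 83.1% of probes per array were well above background, and 5.74% to 9.21% were saturated. Changes are differences of mean log2 relative signal from a limma fit of all 20 arrays, and a change passed the test at a Benjamini-Hochberg adjusted p under 0.05 over the probes kept, 31739 in all, of which 31729 to 31738 had a value in a given comparison. All 8 member probes were kept. The number of arrays limits the precision.

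The arrays lay on 6 slides. Slide 1 held both untreated arrays with replicates 1 and 2 of concentration 1 for 6 h. No other celecoxib array shared a slide with the untreated arrays. Arrays were scanned on 2 days. Both untreated arrays, all 9 arrays of 24 h and 3 of the 9 arrays of 6 h (replicates 1 and 2 of concentration 1 and replicate 1 of 1/25) were scanned on day 1, and the other 6 on day 2, among them all 3 of concentration 1/5. Untreated replicate 1 and replicate 3 of 1/25 for 6 h stood apart, with mean correlations of 0.886 and 0.885 with the other 19 arrays, against 0.922 to 0.946 for the 18 others. Calls lost without them are given beside the results. The lowest correlation between 2 arrays of the same group was 0.886, and the highest 0.977. All 9 cardiomyocyte markers examined, such as Tnnt2 and Myh6, cleared background on each of the 20 arrays, as did 5 of 8 fibroblast markers.

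The probes that carry the values are given first, because for Nppb the probes themselves set what can be read. Each is a 60-base sequence, of which the first 30 bases are printed for 5 of the probes filed under a RefSeq transcript, with positions on rat build rn3 as the array files give them.
Nppa, chr5:165084824-165084883, plus strand: gccttttggctcccaggccatattggagca
Nppb, chr5:165073752-165073811, plus strand: tgttgctgattttctacaagactgtttctt
Nppc, chr9:85617841-85617900, minus strand: ggacggtttttaaagtgactgacaaaacca
Npr2, chr5:60127922-60127981, plus strand: gatgggcaatggtcactgtgtctccacttg
Npr3, chr2:61211800-61211859, minus strand: atagatgctaatggggatcggtatggagac

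The other 2 Nppb probes were filed under an expressed sequence tag and share 40 bases, shown in capitals, so they are not independent readings.
Nppb tag probe A, chr5:165072992-165073051, minus strand: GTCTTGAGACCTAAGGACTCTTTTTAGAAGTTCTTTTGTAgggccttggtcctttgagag
Nppb tag probe B, chr5:165073012-165073071, minus strand: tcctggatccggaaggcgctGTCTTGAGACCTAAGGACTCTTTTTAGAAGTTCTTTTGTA
The positions of both run against the plus strand of Nppb in RefSeq. Of 8394 probes on the array filed under a RefSeq transcript with a position and a gene strand, 95.3% ran with their gene. Which RNA the reversed pair binds was not tested.

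Bases before the transcription start of the 3 peptide genes, from RefSeq (build GRCr8), are shown because the genes of their transcription factors are described further on. Capitals mark matches, on either strand, to TATAAA, the TATA box, and to TGATAA or AGATAA, which GATA factors bind. For Nppb, bases that lie inside the annotated gene were left out.
Nppa, chr5:163711934-163712183, plus strand: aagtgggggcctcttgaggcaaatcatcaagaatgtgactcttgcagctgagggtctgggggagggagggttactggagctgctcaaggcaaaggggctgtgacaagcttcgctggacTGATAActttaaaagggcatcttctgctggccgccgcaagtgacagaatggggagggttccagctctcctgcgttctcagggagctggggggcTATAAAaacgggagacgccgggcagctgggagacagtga
Nppb, chr5:163699758-163699954, plus strand: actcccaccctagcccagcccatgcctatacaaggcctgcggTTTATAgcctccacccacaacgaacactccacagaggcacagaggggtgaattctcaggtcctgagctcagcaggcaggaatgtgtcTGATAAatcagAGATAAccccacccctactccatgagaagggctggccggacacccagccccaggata
Nppc, chr9:94772187-94772436, minus strand: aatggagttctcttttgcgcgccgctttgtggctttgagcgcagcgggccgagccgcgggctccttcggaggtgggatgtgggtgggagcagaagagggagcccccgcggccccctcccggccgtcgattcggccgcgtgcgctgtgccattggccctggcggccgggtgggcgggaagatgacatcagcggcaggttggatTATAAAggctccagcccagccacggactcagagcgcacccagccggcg

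TATAAA stood in 12.9% of 33469 RefSeq promoters over 250 bases, and TGATAA or AGATAA in 16.9%. That length is shown for Nppa and Nppc, and 197 bases for Nppb. The TATAAA match of Nppb lies on the opposite strand, 208 to 203 bases before the start used, which lies inside the annotated gene. The bases between the gene's edge and that start were not searched. Nppa held 1 GATA match, Nppb 2 and Nppc none, and a match is a description of letters, not of binding. Nppa lies 10869 bases beyond the end of Nppb on chromosome 5, and both are read from the plus strand.

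At 6 h against untreated, Nppc had the largest changes of the 5 members that could be compared, all but the saturated Nppb. It was well above background in the untreated cultures, fell to signals that were not well above background on every array of 6 h at all 3 concentrations, and was well above background again on every array of 24 h. Its relative signal was 0.0689 and 0.145 on the untreated arrays. At 6 h it was 0.00715, 0.0171 and 0.00575 at concentration 1, then 0.0156, 0.0173 and 0.0135 at 1/5, and 0.0151, 0.0108 and 0.00511 at 1/25. At 24 h it was 0.072, 0.0568 and 0.0848 at concentration 1, then 0.227, 0.138 and 0.147 at 1/5, and 0.0762, 0.179 and 0.143 at 1/25. The highest array of 6 h lay below the lowest of the 11 others, so the times did not overlap.

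**Figure D1:**
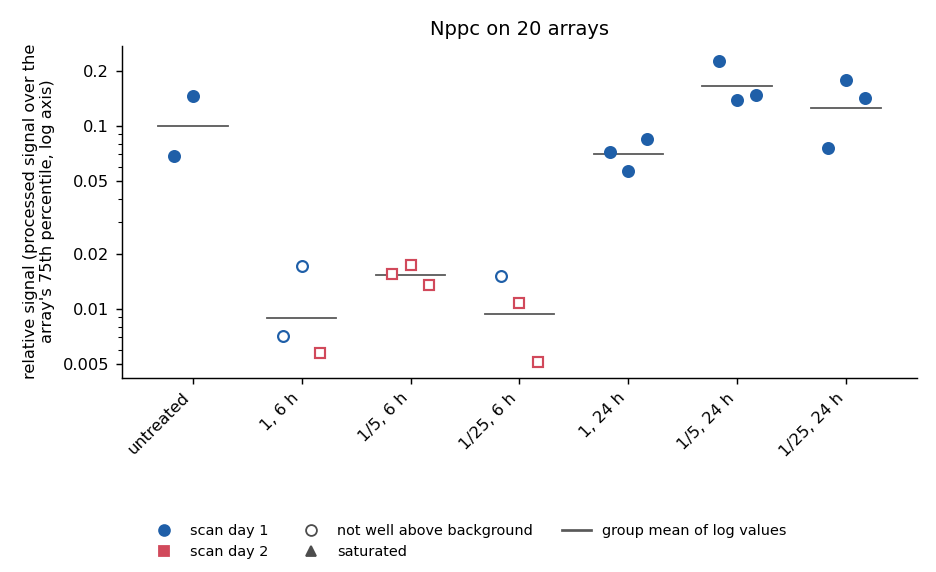
Relative signal of Nppc (log axis) on each of 20 arrays, by group, with circles for scan day 1, squares for scan day 2, hollow symbols for arrays on which the probe was not well above background, and bars for the group mean of the log values. All 9 arrays of 6 h are hollow and lie at 0.0173 or lower, while the 11 others are filled and lie at 0.0568 or higher.

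Nppc was well above background on all 11 untreated and 24 h arrays and on none of the 9 arrays of 6 h. This rule was written from the flags of Nppc itself, so its own match was fixed in advance and is no test. Of 41012 probes, 1 had that pattern (0.00244%), the Nppc probe, and 1 had the opposite one. Being below both untreated arrays on all 9 arrays of 6 h was more common, at 8.45% of kept probes with a value on every array compared, and being below all 9 arrays of 24 h was seen for 0.636%. Nppc kept both separations when arrays were scaled by quantiles or by the median, with normexp background correction, and in the authors' deposited table of ratios.

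Since the probe was not well above background at 6 h, its fall is given as an approximate lower bound. On each array of 6 h, the bound took the higher of Nppc's own value and the dimmest value marked well above background there. At 1/5 that dimmest value was the higher one on 2 of 3 arrays, so a signal not well above background can exceed it. The brighter group's mean was taken as it stood. The bounds were not tested, and the limma p-values beside them belong to the fitted changes. Against untreated, Nppc was at least 3.21-fold lower at concentration 1 (limma adjusted p = 0.00821, mean log2 relative signal -6.81 against -3.32). It was at least 5.78-fold lower at 1/5 (limma adjusted p = 0.0164, -6.02 against -3.32) and at least 4.1-fold lower at 1/25 (limma adjusted p = 0.00624, -6.73 against -3.32). The fitted log2 changes, which are no bounds, were -3.49 ± 0.51 (SE), -2.70 ± 0.51 and -3.41 ± 0.51, with 2 untreated arrays and 3 per celecoxib group. All 3 falls were lower in 3 of 3 arrays.

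The call at concentration 1 held in all 34 alternatives in which it could be tested, with limma adjusted p from 0.0029 to 0.0406. Within scan day 1, where it rests on 2 celecoxib arrays, the change was -3.18 (limma adjusted p = 0.014). At 1/25, scan day 1 holds 1 array, itself not well above background, and the change was -2.73 (limma adjusted p = 0.033, with that array taken to vary like the other groups). The call at 1/25 was lost when slide entered as a random effect (adjusted p = 0.0997) and without both arrays that stood apart (adjusted p = 0.0601). At 1/5, no array was scanned on day 1, and the call was lost in a fit with a term for scan day (-1.72, adjusted p = 0.153) and with slide as a random effect (-2.33, adjusted p = 0.261) or a fixed one (-1.76, adjusted p = 0.514). It was also lost without untreated replicate 1 (adjusted p = 0.0973) or 2 (0.0568), without both arrays that stood apart (0.0516), and without replicate 1 (0.0512), 2 (0.0559) or 3 (0.0707) of its own group.

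From 6 h to 24 h, Nppc rose at all 3 concentrations. Bounds were taken in the same way and were not tested. The limma p-values beside them belong to fitted log2 changes of 2.98, 3.43 and 3.73. The rise was at least 2.25-fold at concentration 1 (limma adjusted p = 0.0101, mean log2 relative signal -6.81 to -3.83). It was at least 9.6-fold at 1/5 (limma adjusted p = 0.00261, -6.02 to -2.59) and at least 5.12-fold at 1/25 (limma adjusted p = 0.00116, -6.73 to -3.00). These were the member probes called in either direction in the 3 comparisons of the times, 1 of 8 in each. Over all probes, 53 of 31735, 1282 of 31735 and 706 of 31738 were called in either direction. Higher calls made up 0.0536%, 1.35% and 0.98% of all probes tested. The rise at concentration 1 was lost with normexp background correction (1.32, adjusted p = 0.135), when slide entered as a random effect (adjusted p = 0.13), and without replicate 1 of 6 h (0.0646) or replicate 1 (0.0661) or 2 (0.053) of 24 h. At 1/5 it was lost after fitting scan day (2.45, adjusted p = 0.171) or a random slide effect (0.097), and at 1/25 after fitting slide as a fixed term (3.38, adjusted p = 0.3).

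At 24 h, the change of Nppc from untreated was -0.51 at concentration 1 (95% interval -1.60 to 0.57), 0.73 at 1/5 (-0.35 to 1.82) and 0.32 at 1/25 (-0.77 to 1.40), and none passed the test. The intervals leave room for a change in either direction. Concentration 1 differed from 1/25 by -0.83 at 24 h (-1.80 to 0.14, limma adjusted p = 1), and the values at 6 h, none well above background, have no order.

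Markers of heart cells were summed over each list on the same scale, as a description of what else differed at 6 h. Probes saturated on part of the arrays were left in, among them Tnnt2 (16 of 20 arrays), Pdgfra (15) and Kdr (3). For the cardiomyocyte, atrial, fibroblast, smooth muscle and erythroid lists, the sums at 6 h, taken over all 3 concentrations, overlapped the untreated ones. Fibroblast sums, for example, were 11.9 and 14.5 untreated and 8.56 to 19.4 at 6 h. At 1/5 alone, whose arrays were all scanned on day 2, the fibroblast sums (8.56 to 9.79) lay below both untreated arrays. So did the smooth muscle sums there (3.27 to 3.91 against 4.28 and 5.87) and the atrial ones (0.575 to 1.02 against 1.15 and 1.87). The lists whose sums did not overlap over all 3 concentrations are given next. The 3 epicardial markers (Wt1, Upk3b and Msln) summed to 0.511 and 0.622 in the untreated cultures, 0.16 to 0.45 at 6 h and 0.443 to 0.656 at 24 h, and 2 of the 3 were well above background on all 20 arrays. Their median log2 change at 6 h, over the 2 tested, was -0.69, -1.04 and -1.33 at 1, 1/5 and 1/25, and 0 passed. The 5 macrophage and leukocyte markers summed to 3.83 and 4.32, then 1.66 to 3.32, then 2.69 to 3.56, with 3 of 5 well above background throughout. A sum is led by its brightest probes, and the median change of these 5 at 6 h was -0.13, 0.06 and -1.07, with 1 called lower, at 1/25. The 6 endothelial markers had sums of 3.14 and 3.18 untreated, 3.36 to 5.07 at 6 h and 2.56 to 3.55 at 24 h, while the median change of the 3 tested was negative at 6 h, at -0.17, -0.82 and -0.30, and 0 passed. Of those 6, only Kdr was well above background on all 20 arrays, and 2 were not well above background on any untreated array. The part of these cells in the Nppc result was not tested, and in cultures measured as a whole, fewer cells of a type and less RNA per cell cannot be told apart.

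Nppb could not be compared between groups. All 3 Nppb probes, the reversed pair included, were saturated on all 20 arrays with 100% of their pixels at the ceiling, and the mean pixel signal was 65272 or 65273 units throughout. Their processed signals still differed from array to array, since the software extrapolates them, and give no fold. Untreated and treated cultures alike were at the scanner's ceiling.

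Nppa was bright on every array, and no comparison of it passed the test. Its probe was spotted 10 times per array. Relative signal was 1.32 and 1.52 untreated, then at 6 h 1.86, 2.21 and 1.89 at concentration 1, 1.89, 1.83 and 1.65 at 1/5, and 2.54, 1.58 and 5.0 at 1/25. The last value is replicate 3, the array that stood apart, on which all 10 spots were saturated. At 24 h the values were 0.521, 1.09 and 2.29 at concentration 1, then 2.34, 1.87 and 2.18 at 1/5, and 1.34, 1.9 and 1.47 at 1/25.

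All 9 arrays of 6 h lay above both untreated arrays, as they did for 4.59% of all kept probes, and 8 of 9 did under scaling to the median. The fitted log2 changes at 6 h were 0.49, 0.33 and 0.94, each with an SE of 0.48, and the smallest limma adjusted p among them was 0.203. At 24 h they were -0.37, 0.58 and 0.13. The spread between the 3 arrays of concentration 1 for 24 h, 0.521 to 2.29, was wider than any of these changes, while the 10 spots of each of those arrays had an SD of 0.099 to 0.115 on the log2 scale.

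**Figure D2:**
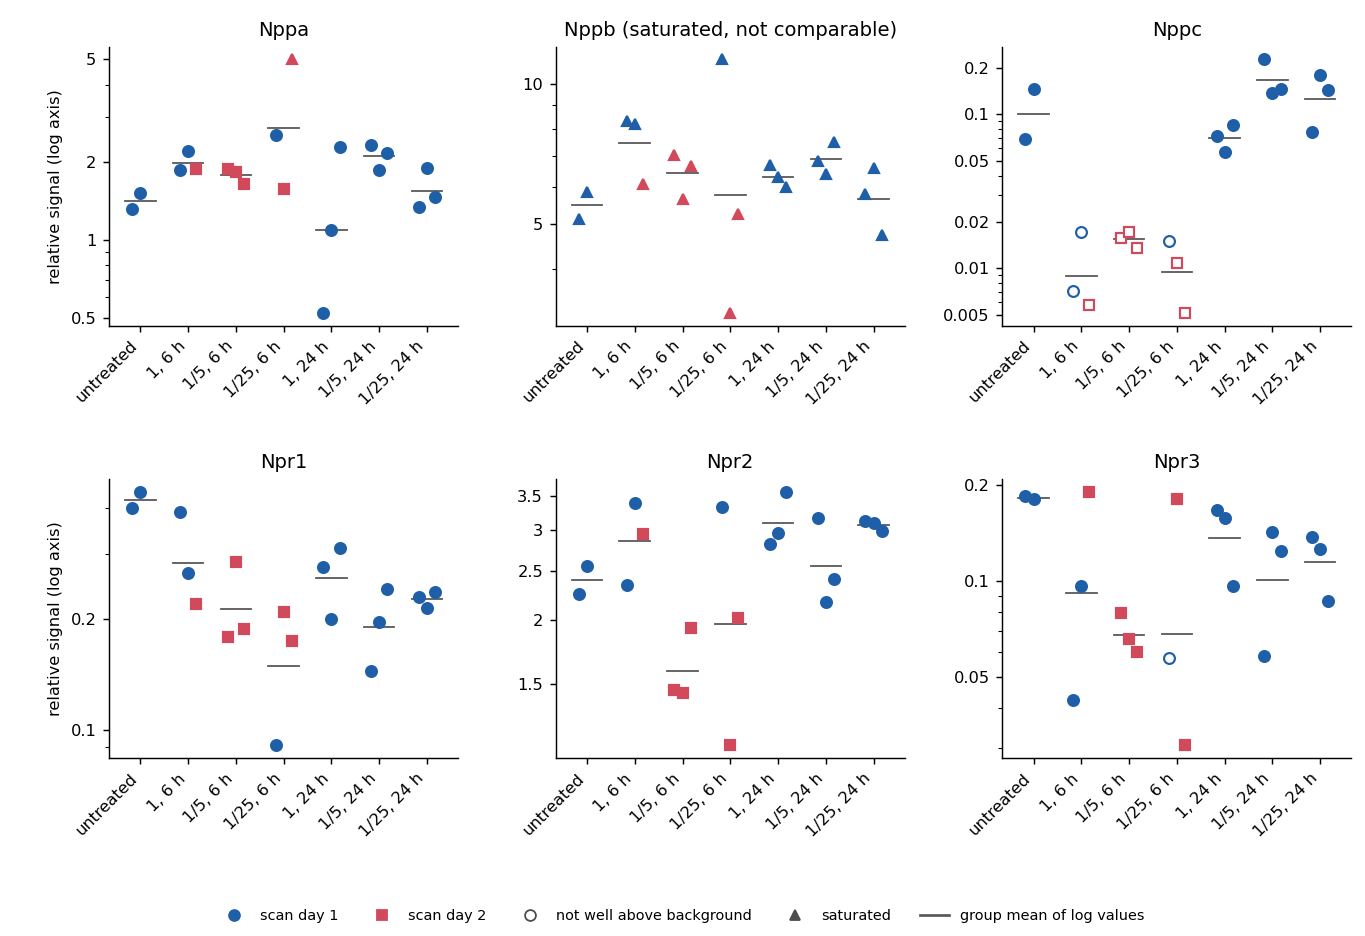
Relative signal (log axis, own scale per panel) of the 6 members on each of 20 arrays, by group, with the lead probe shown for Nppb. Circles are scan day 1, squares scan day 2, hollow symbols not well above background, triangles saturated, and bars the group mean of the log values. Nppc separates the times, all 18 celecoxib arrays of Npr1 lie below both untreated arrays on this scale (16 of 18 with median scaling), and every Nppb value is saturated.

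Npr1, the receptor of ANP and BNP, was lower after celecoxib on all 18 arrays (16 of 18 with median scaling, 17 of 18 with quantile normalization), and the decrease passed the test in 1 group. Relative signal was 0.399 and 0.442 untreated. At 6 h it was 0.389, 0.267 and 0.22 at concentration 1, then 0.179, 0.285 and 0.188 at 1/5, and 0.091, 0.209 and 0.174 at 1/25. At 24 h it was 0.276, 0.2 and 0.311 at concentration 1, then 0.145, 0.196 and 0.241 at 1/5, and 0.229, 0.215 and 0.237 at 1/25.

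All 18 celecoxib arrays lay below both untreated arrays, as they did for 3.28% of kept probes, although replicate 1 of concentration 1 for 6 h came within 0.389 of 0.399. With arrays scaled to the median, that replicate lay above both untreated arrays. Of the celecoxib arrays, only it and replicate 2 of its group (0.267) shared slide 1 with the untreated arrays. Whether slide has a part in the separation was not tested. The probe was spotted 10 times per array, with an SD over spots of 0.069 to 0.206 on the log2 scale.

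At 1/25 for 6 h, Npr1 fell by 1.50 on the log2 scale, to a mean of -2.75 from -1.25 (SE 0.37, n = 3 against 2, limma adjusted p = 0.0321, lower in 3 of 3 arrays). The changes that did not pass were -0.57 and -0.98 at 6 h for concentrations 1 and 1/5, and -0.70, -1.14 and -0.89 at 24 h for 1, 1/5 and 1/25, with limma adjusted p from 0.109 to 0.517. The call was lost under scaling to the median (-1.08, adjusted p = 0.0864), in the authors' deposited table (0.0867), with the replicate number as a block (0.0558), when slide entered as a random effect (0.159), without untreated replicate 1 (0.231) or 2 (0.0608), without replicate 3 of its group (0.0819) and without both arrays that stood apart (0.303). It held after fitting scan day (-1.67, adjusted p = 0.023), and within scan day 1 the change was -2.21 (limma adjusted p = 0.0129). That value rests on 1 array, the lowest of all 20 for Npr1, taken to vary like the other groups.

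Concentration 1 was higher than 1/25 at 6 h by 0.93 for Npr1 (95% interval 0.24 to 1.62), which did not pass (limma adjusted p = 0.762). The test of whether the effect of concentration differed between the times gave -0.74 (-1.72 to 0.23, adjusted p = 0.999).

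Npr2, the receptor of CNP, did not pass in any comparison. Relative signal was 2.25 and 2.55 untreated. At 6 h it was 2.34, 3.38 and 2.94 at concentration 1, then 1.46, 1.44 and 1.93 at 1/5, and 3.32, 1.14 and 2.02 at 1/25. At 24 h it was 2.82, 2.96 and 3.56 at concentration 1, then 3.17, 2.17 and 2.41 at 1/5, and 3.12, 3.1 and 2.98 at 1/25. The 5 lowest values were all from scan day 2, and the 3 arrays of 6 h scanned on day 1 lay within the range of the 24 h arrays. The fitted changes from untreated ran from -0.59 to 0.37, each with an SE of 0.35.

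Npr3, the clearance receptor, did not pass either, and its replicates spread widely at 6 h at 1 and 1/25 (SD of 1.09 and 1.30 on the log2 scale) but not at 1/5 (0.21). Relative signal was 0.185 and 0.181 untreated. At 6 h it was 0.0424, 0.0967 and 0.191 at concentration 1, then 0.0799, 0.0658 and 0.0601 at 1/5, and 0.0574, 0.181 and 0.0306 at 1/25, where the probe was not well above background on replicate 1. At 24 h it was 0.167, 0.158 and 0.0966 at concentration 1, then 0.0582, 0.143 and 0.125 at 1/5, and 0.138, 0.126 and 0.087 at 1/25.

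All 9 arrays of 24 h lay below both untreated arrays, as they did for 7.79% of kept probes, but 5 of 9 did with median scaling and 3 of 9 with quantile normalization. The fitted changes were -0.99, -1.43 and -1.43 at 6 h and -0.43, -0.86 and -0.67 at 24 h, each with an SE of 0.63. Without replicate 2 of 1/25 for 6 h, the change there was -2.13 and passed (limma adjusted p = 0.0241).

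**Figure D3:**
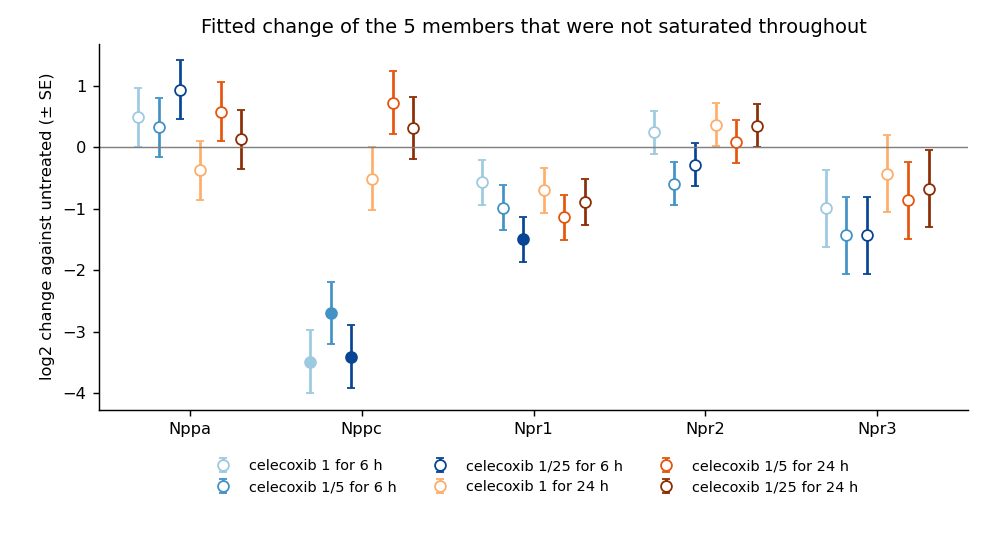
Fitted log2 change against untreated (± SE) for the 5 members that were not saturated throughout, with 6 celecoxib groups per gene and filled symbols where the limma adjusted p was under 0.05. Only the 3 groups of 6 h of Nppc and 1/25 for 6 h of Npr1 are filled, and the Nppc values at 6 h rest on signals that were not well above background.

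Over the 8 member probes, 1 was called at concentration 1 for 6 h (Nppc), 1 at 1/5 (Nppc) and 2 at 1/25 (Nppc and Npr1), all lower than untreated. Of all probes tested, 0.429%, 6.15% and 5.76% were called in these comparisons, and 0.306%, 2.07% and 3.71% were called lower. At 24 h, limma called 0 of 8 at each concentration, where 0, 1 and 1 had an unadjusted p under 0.05, against 0.0567%, 0.271% and 0.274% of all probes called. The comparisons of concentration 1 with 1/25 at each time, and of that effect between the times, called 0 of 8 and 0% of all probes in limma. In these, 1 member probe had an unadjusted p under 0.05 at 6 h and 0 in the other 2. Concentration 1/5 was not compared with 1 or 1/25.

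The median change of all probes was -0.08, -0.20 and -0.21 at 6 h on this scale for 1, 1/5 and 1/25, and 0.24, -0.01 and 0.21 with arrays scaled to the median. All changes here are relative to that choice. With the 75th percentile, 39 probes were called higher and 97 lower at concentration 1 for 6 h, 1294 and 658 at 1/5, and 651 and 1178 at 1/25. With median scaling these were 54 and 44, 1941 and 363, and 2094 and 558.

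The other genes of the pathway came from 5 lists: processing and clearance of the peptides, effectors of cyclic GMP, phosphodiesterases that break it down, other guanylate cyclases, and transcription factors of Nppa and Nppb. They held 48 genes, of which 46 had a probe and 37 were kept, on 36 probes. At 6 h against untreated, 0 of these passed at concentration 1. At 1/5, 1 passed higher and 2 lower, where 4.08% and 2.07% of all probes tested were called higher and lower. At 1/25, 3 passed lower, where 3.71% of all probes did. The median changes of the lists together at 6 h were -0.37, -0.54 and -0.54, beside -0.08, -0.20 and -0.21 for all probes. Those at 24 h were -0.44, -0.10 and -0.25, beside -0.00, -0.04 and -0.05. At 24 h against untreated, limma called 0 at each concentration, and from 6 h to 24 h it called 0, 2 and 2, all higher, where 0.0536%, 1.35% and 0.98% of all probes were called higher.

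Among 15 transcription factors kept, Klf15 was the one that passed. It encodes a Krüppel-like factor known as a repressor of hypertrophic genes in heart muscle. Its relative signal was 0.145 and 0.209 untreated, 0.0231 to 0.103 with a median of 0.0387 on the 9 arrays of 6 h, and 0.116 to 0.249 with a median of 0.196 at 24 h, so that the times did not overlap, a pattern that 0.636% of kept probes had. With normexp, 7 of 9 arrays of 6 h lay below all arrays of 24 h. With median scaling, 8 of 9 arrays of 6 h lay below both untreated arrays, and with quantiles 7 of 9. It fell by 2.66 ± 0.43 (SE) at 1/5 for 6 h (limma adjusted p = 0.0106) and by 1.79 ± 0.43 at 1/25 (limma adjusted p = 0.0312), and was higher at 24 h than at 6 h by 2.54 ± 0.38 (0.00598) and 1.97 ± 0.38 (0.02).

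The 6 arrays of scan day 2 held the lowest Klf15 values, 0.0231 to 0.051, against 0.0692 to 0.103 on the 3 arrays of 6 h scanned on day 1. After fitting scan day, all 4 calls were lost (-1.64, -1.11, 1.52 and 1.29, limma adjusted p 0.0912, 0.0779, 0.26 and 0.0796). Without untreated replicate 1, the falls at 1/5 and 1/25 were lost too (adjusted p = 0.097 and 0.172), and the fall at 1/25 was also lost without untreated replicate 2 (0.0772), without replicate 3 of its group (0.0962) and under median scaling (-1.37, adjusted p = 0.0837). The rise at 1/25 was lost without replicate 3 of 6 h (0.0701) or any 1 array of its 24 h group (0.0564 to 0.0793). Gata4, which encodes a GATA factor, was well above background on all 20 arrays with values of 2.6 to 5.86 and did not pass.

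Among 9 phosphodiesterases kept, 3 passed in 1 comparison each. Pde1a, a calcium-regulated enzyme that breaks down cyclic GMP, was 0.229 and 0.463 untreated and 0.0837, 0.0773 and 0.0516 at 1/25 for 6 h, where it fell by 2.23 ± 0.45 (limma adjusted p = 0.0178). The call was lost without untreated replicate 1 (adjusted p = 0.0792) or 2 (0.0534), without replicate 3 of its group (0.0745), without both arrays that stood apart (0.16), and when slide entered as a random effect (0.141). Within scan day 1 the change was -1.96 on 1 array, taken to vary like the other groups (limma adjusted p = 0.0767). The related Pde1c fell by 1.42 ± 0.40 in the same group (limma adjusted p = 0.0479), a call that held in 8 of 32 alternatives and rests on a probe that was not well above background on 2 of the 3 arrays of that group.

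Pde3b, which breaks down cyclic AMP and is slowed by cyclic GMP, was called higher at 1/5 for 6 h, by at least 3.8-fold, a bound because it was not well above background on either untreated array (limma adjusted p = 0.0396, mean log2 relative signal -2.91 against -6.37). Its values followed the scan day. They were 0.0877 to 0.139 and well above background on all 6 arrays of day 2, whatever the concentration, and 0.00703 to 0.0482 on the 14 arrays of day 1, of which 2 were well above background. The fitted log2 change, which is no bound and to which the limma adjusted p of 0.0396 belongs, was 3.46. That change was 0.14 after fitting scan day (limma adjusted p = 0.902) and 2.67 without untreated replicate 1 (limma adjusted p = 0.327).

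Of 5 probes for other guanylate cyclases, that of Gucy1a3, a subunit of the nitric oxide receptor, passed. It was 1.51 and 1.72 untreated, 0.598 to 1.68 at 6 h and 2.18 to 3.97 at 24 h, and the times did not overlap, as for 0.636% of kept probes. It fell by 1.19 ± 0.34 at 1/5 for 6 h (limma adjusted p = 0.0485, held in 9 of 34 alternatives) and was higher at 24 h than at 6 h by 1.98 ± 0.31 at 1/5 (0.0068) and 1.47 ± 0.31 at 1/25 (0.0251). After fitting scan day, those were -0.76, 1.54 and 1.18, with limma adjusted p of 0.333, 0.212 and 0.0855. Its other kept probe had the opposite sign in both comparisons at 1/5.

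**Figure D4:**
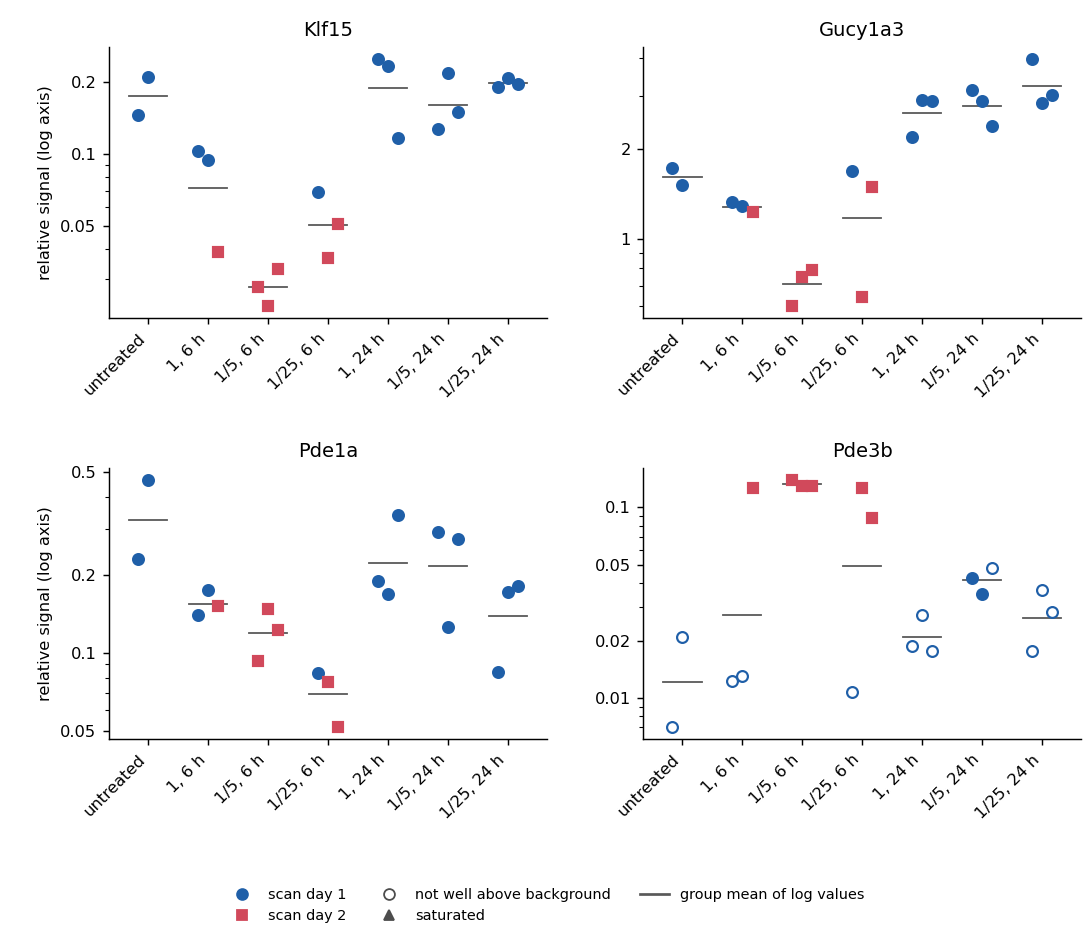
Relative signal (log axis, own scale per panel) of Klf15, Gucy1a3, Pde1a and Pde3b on each of 20 arrays, by group, with circles for scan day 1, squares for scan day 2, hollow symbols where the probe was not well above background, and bars for the group mean of the log values. Klf15 (7 of 9 arrays with normexp) and Gucy1a3 separate 6 h from 24 h, and Pde3b separates the scan days.

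In the list of processing and clearance, 4 of 6 genes were kept and 0 passed in limma. Furin, a protease that cleaves the peptide precursors, was saturated on all 20 arrays and gives no fold. Corin, which activates the ANP precursor at the surface of heart muscle cells, was well above background on 3 of 20 arrays. Of the cyclic GMP effectors, 3 of 7 were kept and 0 passed, with Rgs2 saturated on 5 of 20 arrays and Pln on 3.

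The genes most like a member were sought for Npr1 and Npr2, whose probes cleared background on each of the 20 arrays and saturated on none. Pearson correlations of log2 relative signal, after each scan day's mean was subtracted, were taken over 20 arrays among 7007 probes. Closest to Npr1 were Cpsf3, Dd5 and Timp3, each at 0.77, and closest to Npr2 were Srpk2 (0.82), Acad9 (0.79) and Smu1 (0.77). Without subtracting the scan day's mean, Acad9 was at 0.43, Srpk2 at 0.91 and Smu1 at 0.79. All probes on an array share its RNA, scaling and slide, and these are the highest of many values. The correlation between Npr1 and Npr2 themselves was -0.29.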

How the data were processed

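The members and gene lists were chosen with earlier results of these data known. The deposited scanner files hold each spot's fluorescence intensity in linear units, already background-corrected; per the file headers, the software was version 9.5.3.1 of Agilent Feature Extraction. The authors' deposited table holds a linear ratio: 99.6% of its values lay within 1% of the processed signal over the array's median and the mean of the 2 untreated arrays, and its column medians ran from 0.826 to 1.27. It served as an alternative.

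Processed signals were taken to log2 less the array's 75th percentile. Control spots were dropped, as were the 0.535% marked as outliers, and a probe's remaining spots were averaged. A probe was kept if at least 1 group had it well above background on all its arrays. All 20 arrays were fitted with a mean per group in limma 3.58.1 (R 4.3.3), with two-sided moderated tests, 13 residual degrees of freedom (17.1 after moderation) and 12 comparisons. The script was tested on simulated data. Tables were read with data.table (version 1.17.8) and jsonlite (2.0.0), and slide correlation (0.329) used statmod (1.5.0).

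All probes of each member were named. The lead probe of a gene was the one well above background on most arrays, then saturated on fewest, then brightest. Of each list, members that passed were named, up to 4, and Gata4, Corin and Furin were named after their values were seen. Alternatives were other scalings, background corrections and filters, slide, scan day or replicate number as a block, scan day 1 alone, and leaving out each array. Leaving out both arrays that stood apart was added after seeing the data. Same-numbered arrays did not deviate together on average (mean correlation -0.004 over 57 pairs, -0.430 to 0.449), so numbers were not used as pairs. Pairs with different numbers had a mean of 0.002 (-0.590 to 0.430). The Npr1 probe sequence is not reported here.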

Additional observations from a re-analysis of the deposited data

Results flagged for a closer look

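The change of Nppc from 6 h to 24 h passed the test of the difference between the times at every concentration: 2.98 at 1, 3.43 at 1/5 and 3.73 at 1/25 on the log2 scale, from signals that were not well above background at 6 h. At 1/5, all 3 arrays of 6 h lay below the untreated mean and all 3 of 24 h above it, with the same difference of 3.43. Whether the sides differ was not tested apart from that difference, and scan day differs between these 2 groups, so that day and time cannot be told apart at 1/5.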

How the results depend on the processing

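Over 72 member changes, those of the saturated Nppb included, 2424 values were recomputed under the alternatives. Of these, 2304 kept their sign and side of the threshold, 29 lost the call, 4 gained one, 87 changed sign without passing, and 0 reversed. Most of the 72 were not called to begin with, and all 29 losses fell on the called changes of Nppc and Npr1. The call of Nppc at 1/5 for 6 h was lost in 10 of 33 alternatives, and that of Npr1 at 1/25 for 6 h in 8 of 34. The 4 gained were Npr1 at 1/5 for 6 h with normexp (-1.09, adjusted p = 0.0453), Nppb at 1/25 within scan day 1 (1.05, 0.0432, saturated), and Npr2 from 6 h to 24 h at 1/25 (1.01) and Npr3 at 1/25 for 6 h (-2.13), each without 1 array.

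The counts of member probes called at 1/25 for 6 h, 2 here, were 1 with median scaling, the deposited table, the replicate block or only probes well above background on all 20 arrays, 0 with slide as a random block or without both arrays that stood apart, and 4 within scan day 1, of which 2 were saturated Nppb probes. At 1/5 for 6 h, 1 here, the count was 2 with normexp and 0 with slide as a random or fixed block, scan day as a block, the replicate block with scan day, only probes well above background throughout, or without both arrays. That filter gave 0 at concentration 1 for 6 h and in all 3 comparisons of the times, since it removes Nppc. From 6 h to 24 h, the count of 1 became 0 at concentration 1 with normexp or slide as a random block, at 1/5 with slide as a random block, scan day as a block or the replicate block with scan day, and at 1/25 with slide as a fixed block. Leaving out 1 array gave 0 to 1 at 1/5 for 6 h, 1 to 3 at 1/25 for 6 h, 0 to 1 and 1 to 2 from 6 h to 24 h at concentrations 1 and 1/25, and the same counts elsewhere. The replicate block alone changed no other count of member probes; 7 of 20 arrays correlated best with their own number.

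Over all probes, the calls at 1/5 for 6 h went from 1952 to 284 with scan day as a block, and to 3 with slide as a random block. With scan day as a block they went from 136 to 2384 at concentration 1 for 6 h and from 1829 to 3351 at 1/25. With slide as a random block these became 415 and 12. Slide as a fixed block could not be fitted for the comparisons whose groups share no chain of slides. Signal over background limits Nppc at 6 h, Corin, Pde3b and Pde1c, and saturation limits Nppb and Furin on every array. On part of the arrays, saturation also limits Rgs2, Pln and the cardiomyocyte, fibroblast and endothelial sums.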
